A study of Mus musculus with 12 samples.

Results

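The effect of streptozotocin (STZ) on glomerular RNA that control mice and mice lacking Dach1 in podocytes have in common was measured in all 12 of the 12 libraries. An additive model set the 6 libraries from STZ mice against the 6 baseline libraries, with genotype as a block, and its STZ term is described here. It was fitted on the 13475 genes listed in the tables of both arms, of 13480 listed at baseline and 16293 after STZ. The mice were C57BL/6 and fell into 4 groups of 3 different animals, control and podocyte-specific DACH1 KO, each at baseline and after STZ. Baseline mice were 10 weeks old. STZ mice had daily injections of 50 µg per g body weight on 5 days and gave RNA 10 days after STZ, and the age of the STZ mice is not given in the sources used here. Control libraries carry different short names at baseline (Ctrl) and after STZ (hetN), which the labels do not explain, and the promoter that drives the podocyte-specific deletion is not given in the sources used here. Treatment and arm coincide. STZ and any other difference between the arms, such as depth or the filtering of the tables, cannot be told apart. The same holds for any difference in age or in day of preparation, which the sources used here do not give for both arms.

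The glomerulus is the filtering tuft of the kidney. It is made of fenestrated endothelial cells, podocytes whose foot processes carry the slit diaphragm, and mesangial cells that hold the capillary loops together, and it houses a few resident immune cells. STZ enters cells through the glucose transporter of pancreatic beta cells, alkylates their DNA and kills them, so that insulin falls and the mice become diabetic. DACH1 is a transcriptional cofactor that podocytes express. Glomeruli were pulled out with magnetic beads perfused through the heart, and the RNA is that of the whole tuft with what adhered to it. In bulk samples, fewer cells of a type and less RNA per cell cannot be told apart.

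Library totals were 2.26e+07 to 2.49e+07 counts in the baseline arm and 6.61e+07 to 7.86e+07 in the STZ arm. Glomerular markers were present in every library, with Nphs1, the nephrin gene of the slit diaphragm, at 1857 CPM or more and Kdr, the endothelial VEGF receptor gene, at 1154 CPM or more (CPM, counts scaled by library total and TMM factor). Dach1 lay between 106 and 188 CPM in the 6 control libraries and between 47.2 and 67.01 CPM in the 6 knockout libraries. Its log2 knockout term was -1.45 (SE 0.13) at an adjusted p of 9.10e-05, and its STZ term was 0.18 (SE 0.13, adjusted p = 0.446). By Xist, 4 of the 6 baseline mice and 1 of the 6 STZ mice were female, so sex moves with the arm. Its part in the results was not tested apart from fits with Xist as a covariate and fits on the 7 male mice. The effect of Xist on the calls is given below for the lists with a call, and in the male libraries no member of any list with a call was called. Proximal tubule markers, the sign of adhering tubule, summed to 3211 to 34121 CPM at baseline and 3867 to 16929 CPM after STZ. The first principal component (34.1% of the variance) did not separate the arms, and the second (19.8%) did.

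The STZ term was called (adjusted p under 0.05, edgeR quasi-likelihood test) in 1168 of 13475 genes, or 8.67%. Of these, 646 (4.79%) were higher after STZ and 522 (3.87%) lower. The changes were mostly small, with a median log2 fold change of 0.48 among higher and -0.56 among lower genes against 0.026 over all genes tested. A change of 2-fold or more, which is an absolute log2 value of at least 1, was reached by 80 higher and 60 lower genes. In 284 genes (2.11% of those tested) all 6 STZ libraries lay above all 6 baseline libraries and in 334 (2.48%) all lay below, and 535 of these 618 genes (4.59%) were also called. With Xist as a covariate 365 genes were called (187 higher and 178 lower), of which 354 were among the 1168, and in the 7 male libraries, 2 at baseline and 5 after STZ, 7 genes were called, all lower.

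**Figure D1:**
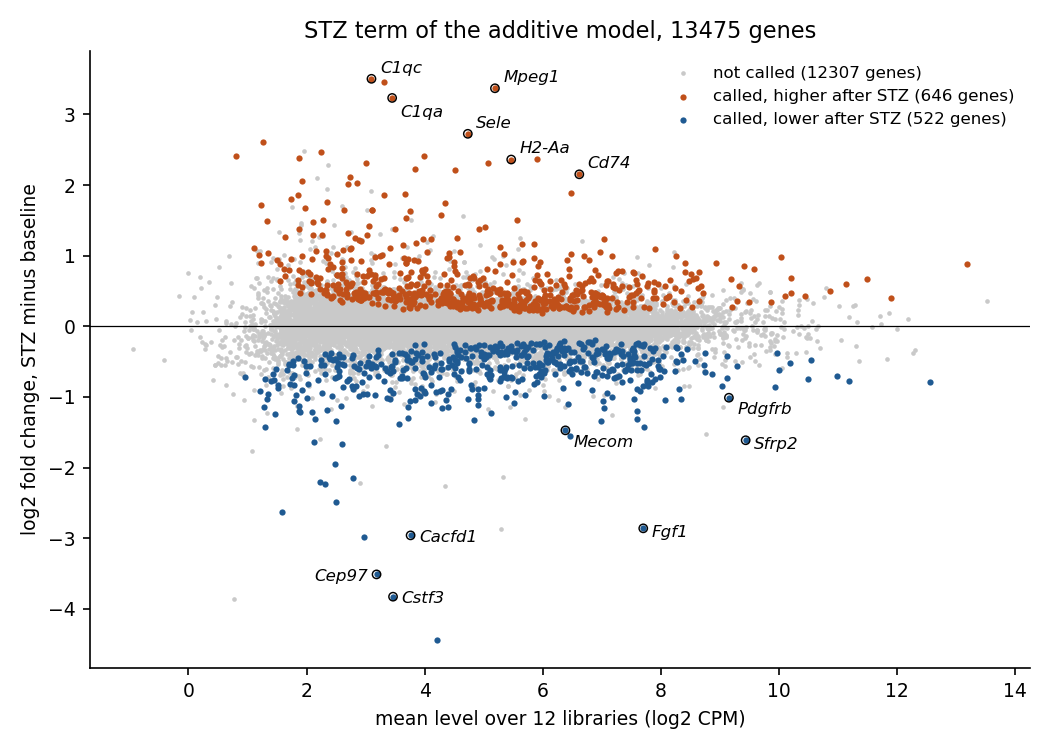
The STZ term of each of 13475 genes (vertical axis, log2 fold change, STZ minus baseline) is plotted against its mean level over 12 libraries (horizontal axis, log2 CPM), with the 646 genes called higher in orange, the 522 called lower in blue and the rest in grey. Labelled points are genes described in the text. Macrophage and MHC class II genes such as C1qc and Cd74 stand at the top, and Cstf3, Cep97 and Cacfd1 near the bottom.

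Genes of macrophages and of the complement component C1q had the largest increases. Of 19 tested macrophage and complement markers, 12 rose and 1 fell, against 4.79% of all genes called higher and 3.87% called lower, with a median log2 fold change of 1.62 against 0.026 over all genes. C1qa, C1qb and C1qc encode the chains of C1q, the recognition molecule of the classical complement pathway, which macrophages secrete. C1qa (chromosome 4, 136895916 to 136898844, GRCm38.p6, RefSeq) stood at 1.22 to 3.47 CPM at baseline (median 1.57) and 4.40 to 63.7 CPM after STZ (median 11.4). All 6 STZ libraries lay above all 6 baseline libraries (log2 fold change 3.23, SE 0.70, adjusted p = 0.0178). C1qc, listed beside it on chromosome 4, stood at 0.538 to 2.11 CPM at baseline (median 1.33) and 2.80 to 49.9 CPM after STZ (median 9.10), also without overlap, which is 11.4-fold (log2 fold change 3.51, SE 0.77, adjusted p = 0.0194). C1qb rose alike (3.47, adjusted p = 0.0226), but its arms overlapped.

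Mpeg1, the macrophage pore-forming perforin-2 gene, ranged from 4.35 to 7.91 CPM at baseline (median 6.37) and 11.7 to 212 CPM after STZ (median 44.97). The arms did not overlap, and the increase was 10.3-fold (log2 fold change 3.37, SE 0.66, adjusted p = 0.0119). Lyz2, the lysozyme gene of myeloid cells, stood at 10.8 to 25.5 CPM at baseline (median 20.05) and 32.3 to 279 CPM after STZ (median 69.0), again without overlap (log2 fold change 2.37, SE 0.46, adjusted p = 0.0115). Lyz1 is a near-identical neighbour on chromosome 10 (2.41, adjusted p = 0.0102), and how reads were divided between both is not given, so their separate values are uncertain. Tyrobp and Fcer1g, which encode signalling adaptors of myeloid receptors, rose by 1.86 and 2.12 on the log2 scale (adjusted p = 0.0208 and 0.0251). Adgre1, which encodes the F4/80 antigen, rose by 1.32 (adjusted p = 0.0423). Cx3cr1, the fractalkine receptor gene, rose by 1.38 (adjusted p = 0.0445), and Ptprc, the pan-leukocyte CD45 gene, by 1.04 (adjusted p = 0.0492).

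The 1 member that fell was Mrc1, the mannose receptor gene of tissue-resident macrophages and of some endothelium. It went from 188 to 321 CPM at baseline (median 239.6) and 81.0 to 166 CPM after STZ (median 119.9), without overlap (log2 fold change -1.03, SE 0.19, adjusted p = 0.0102). Csf1r, the receptor gene for macrophage colony-stimulating factor, did not pass (0.96, adjusted p = 0.0554), although it stood at 16.2 to 32.6 CPM at baseline and 31.0 to 95.3 CPM after STZ. Itgam, the CD11b gene, did not pass either (0.77, adjusted p = 0.126). The summed level of the list was 308 to 459 CPM at baseline and 277 to 1344 CPM after STZ, so the sums overlapped. Mrc1, which fell, made up much of the baseline sum. The mean log2 CPM over the list was 2.22 to 2.80 at baseline and 2.91 to 5.41 after STZ, without overlap. Control STZ replicate 1 was the highest library for C1qa, C1qc, Mpeg1 and Lyz2. Without it the median was 1.02 and 8 members rose, and with Xist as a covariate the median was 1.67 but 4 rose. Between 4 and 6 rose without knockout STZ replicate 3, any 1 of the control baseline libraries or knockout baseline replicates 2 or 3. The count also depended on the test, since limma-voom called 1 member higher, Lyz2, and 1 lower, Mrc1. C1qa, Lyz1, Lyz2, Mpeg1 and Mrc1 kept the edgeR call in each of the 12 fits without 1 library and with Xist.

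Genes of the MHC class II pathway, which displays peptides of engulfed proteins to helper T cells, rose with them. Of 9 tested members 7 rose, against 4.79% of all genes, and none fell. All 9 had a positive log2 fold change, and the median was 1.10 against 0.026 over all genes. H2-Aa and H2-Ab1 encode the chains of the class II molecule I-A. H2-Aa (chromosome 17, 34282744 to 34287823) stood at 10.6 to 17.7 CPM at baseline (median 14.7) and 27.1 to 194 CPM after STZ (median 53.01). No library of either arm reached into the range of the other (log2 fold change 2.36, SE 0.50, adjusted p = 0.0158). H2-Ab1 rose by 2.31 (SE 0.47, adjusted p = 0.0142). Cd74, the invariant chain that guides class II molecules through the cell, stood at 25.7 to 44.6 CPM at baseline (median 36.5) and 57.6 to 379 CPM after STZ (median 128). Its arms did not overlap (log2 fold change 2.15, SE 0.45, adjusted p = 0.0154). Ctss, the protease that trims the invariant chain, rose by 2.21 (adjusted p = 0.0251) and is also counted among the macrophage markers that rose. H2-DMa and H2-DMb2, which load the peptide, rose by 1.07 and 1.04 (adjusted p = 0.0437 and 0.0451). Ciita, the coactivator that class II genes need, went from a median of 1.43 to 3.04 CPM (1.10, adjusted p = 0.0480). With Xist as a covariate 2 of the 9 remained called, H2-Ab1 (adjusted p = 0.0441) and Cd74 (adjusted p = 0.0496), while the median was 1.32. Without control STZ replicate 1 it was 0.92 with 4 called, and 3 or 4 were called without any other 1 library except control STZ replicate 2 and knockout STZ replicate 1. H2-Ab1 and Cd74 kept the call in all 12 such fits. With limma-voom 2 members were called, H2-Aa and Cd74.

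Class II promoters carry a CCAAT box, the element of the factor NF-Y, close to the start of transcription, and those of H2-Aa and H2-DMb2 are printed because they hold one. They are the 250 bases before the first start that RefSeq lists for each gene (GRCm38.p6), 5′ to 3′ on the gene's strand, with the match to CCAAT or its complement ATTGG in capitals.
H2-Aa, chr17:34287824-34288073, minus strand: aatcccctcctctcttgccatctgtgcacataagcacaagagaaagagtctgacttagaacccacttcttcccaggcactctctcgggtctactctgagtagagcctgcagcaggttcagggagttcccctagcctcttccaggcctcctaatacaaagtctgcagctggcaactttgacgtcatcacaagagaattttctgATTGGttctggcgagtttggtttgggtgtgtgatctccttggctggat
H2-DMb2, chr17:34144999-34145248, plus strand: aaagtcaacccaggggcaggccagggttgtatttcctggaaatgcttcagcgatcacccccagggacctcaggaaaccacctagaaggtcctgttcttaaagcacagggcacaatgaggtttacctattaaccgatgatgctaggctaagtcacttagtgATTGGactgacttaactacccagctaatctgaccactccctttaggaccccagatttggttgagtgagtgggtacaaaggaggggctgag
In H2-Aa the match lies at -48 to -44 from the start, and the cAMP element TGACGTCA, which reads the same on both strands, at -74 to -67. In H2-DMb2 the CCAAT match lies at -90 to -86. Among the 4 called members with a promoter in the RefSeq table (the others are H2-DMa and Ctss), 2 held CCAAT on either strand within 250 bases before and 50 after the start. The same window held it in 38.7% of the 10396 tested genes with a promoter, in 37.4% of those called higher and in 38.0% of those called lower. The cAMP element was in 3.03% of all. A match is a match of letters only.

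Inflammatory signals of endothelium and of NF-kappaB, the transcription factor of acute inflammation, were called in part. Of 17 tested chemokines, adhesion molecules and NF-kappaB targets 5 rose, against 4.79% of all genes, and none fell (median 0.16). Sele, the endothelial adhesion molecule E-selectin that slows leukocytes on the vessel wall, stood at 4.55 to 8.54 CPM at baseline (median 6.72) and 17.1 to 159.7 CPM after STZ (median 23.7). The arms did not overlap, but control STZ replicate 1, at 159.7 CPM, was far above the other STZ libraries (log2 fold change 2.73, SE 0.59, adjusted p = 0.0182). Il1b, the interleukin 1 beta gene, had a median of 1.41 CPM at baseline and 7.51 CPM after STZ (log2 fold change 2.47, SE 0.48, adjusted p = 0.0119), with overlap. Cxcl1, a neutrophil chemokine, rose by 1.81 (adjusted p = 0.0391). Relb, an NF-kappaB subunit, rose by 0.47 (adjusted p = 0.0217), and Tnfaip3, the feedback inhibitor A20, by 1.06 (adjusted p = 0.0437). Icam1 (0.99, adjusted p = 0.155) and Vcam1 (0.87, adjusted p = 0.236), adhesion molecules of activated endothelium, did not pass. With Xist as a covariate Il1b alone of the list remained called (adjusted p = 0.0154). The number that rose was 2 or 3 without knockout STZ replicates 2 or 3, any 1 of the control baseline libraries or knockout baseline replicates 2 or 3, and Il1b kept its call in each fit without 1 library. With limma-voom Relb was the 1 member called.

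Interferon-stimulated genes were not called higher. Of 31 tested, 1 fell, against 3.87% of all genes, and 26 had a positive log2 fold change (median 0.31). The 1 that fell was the exonuclease gene Isg20 (-0.61, adjusted p = 0.00819), which kept the call with Xist as a covariate. Isg15, a ubiquitin-like interferon product, had a log2 fold change of 0.53 (adjusted p = 0.260) without and 0.99 (adjusted p = 0.0320) with Xist as a covariate, and 4 members were called higher in that fit. Of 4 tested lymphocyte markers none was called, and another 6 of the 20 on the list, Cd4 and Cd8a among them, were listed in the STZ tables only.

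**Figure D2:**
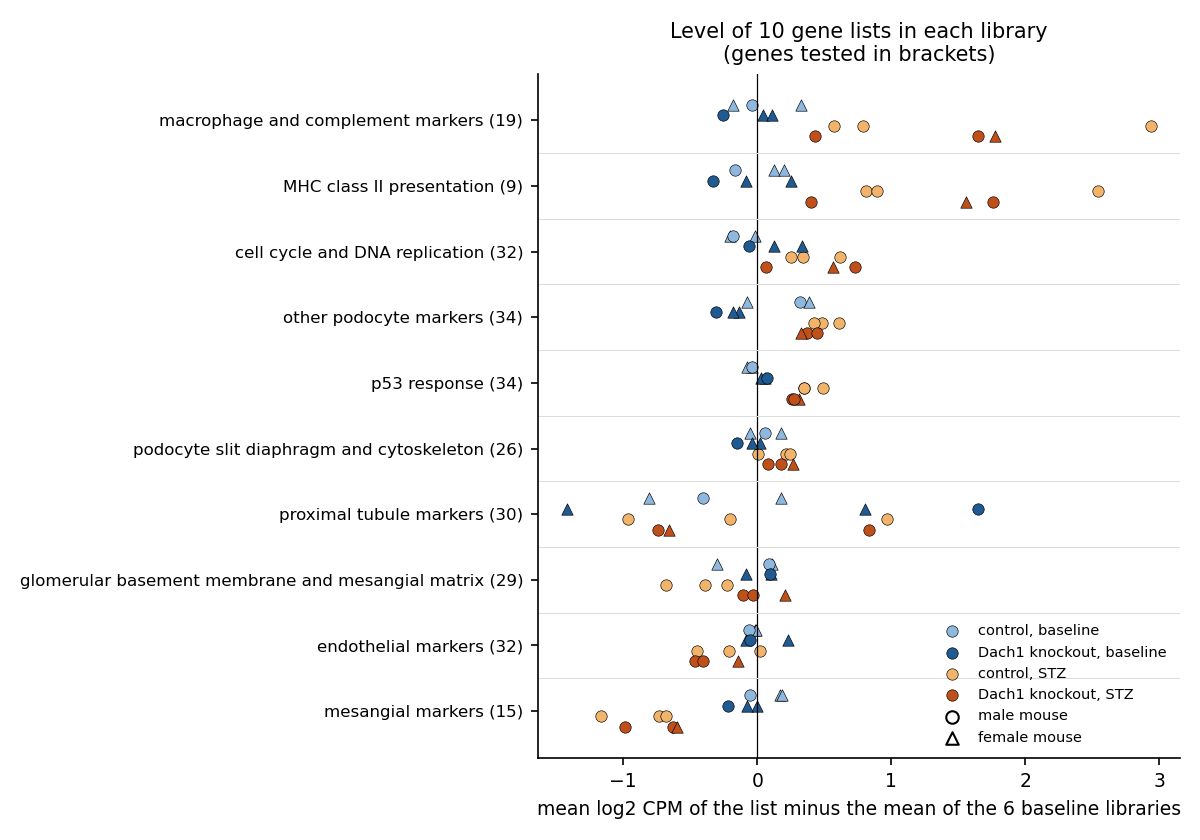
Each symbol is 1 library, placed at its mean log2 CPM over a gene list minus the mean of the 6 baseline libraries (horizontal axis, log2 units), for 10 lists named on the vertical axis with the number of genes tested, and with circles for male and triangles for female mice. The 6 STZ libraries lie right of the 6 baseline libraries for MHC class II genes and left of them for mesangial markers, while proximal tubule markers spread widely in both arms.

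Mesangial cells are the pericytes of the glomerulus. Of 15 tested mesangial markers 11 fell and none rose, against 3.87% of all genes called lower, and the median log2 fold change was -0.84. Pdgfrb, the receptor that keeps mesangial cells in the tuft, stood at 649 to 960.2 CPM at baseline (median 697) and 286 to 554 CPM after STZ (median 351). No STZ library reached the baseline range (log2 fold change -1.01, SE 0.16, adjusted p = 0.00428). Sfrp2, a secreted Wnt modulator, stood at 724 to 1339 CPM at baseline (median 1108) and 229.9 to 426 CPM after STZ (median 355). All 6 STZ libraries were below all 6 baseline libraries (log2 fold change -1.61, SE 0.17, adjusted p = 0.000519). Gata3, a transcription factor of mesangial cells, fell from a median of 176 to 81.6 CPM without overlap (log2 fold change -1.15, SE 0.21, adjusted p = 0.00883).

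Cspg4, the pericyte proteoglycan NG2, fell by 1.10 on the log2 scale (adjusted p = 0.00774). Agtr1a, the angiotensin II receptor gene (chromosome 13, 30336356 to 30382867), stood at 263 to 371 CPM at baseline (median 289.9) and 146 to 217 CPM after STZ (median 185), without overlap (log2 fold change -0.75, SE 0.12, adjusted p = 0.00453). Des, the intermediate filament desmin (-0.68, adjusted p = 0.00411), Ptn, the growth factor pleiotrophin (-0.84, adjusted p = 0.00834), and Postn, the matrix protein periostin (-0.94, adjusted p = 0.0146), fell without overlap. Itga8, the integrin chain that marks mesangial cells, fell from a median of 1286 to 703 CPM with overlap (-0.87, adjusted p = 0.0160). The list summed to 5382 to 6612 CPM at baseline and 2412 to 4106 CPM after STZ, and these sums did not overlap. The median was -0.70 with 7 members called with Xist as a covariate, and -0.67 in male mice, where none was called. Smtn, the smooth muscle protein smoothelin, was the 1 called of 10 smooth muscle and renin cell markers (-0.71, adjusted p = 0.00236). Ren1, the renin gene, had a log2 fold change of 0.37 (adjusted p = 0.442).

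Matrix genes fell in part. Of 29 tested genes of the basement membrane and mesangial matrix 5 fell and 1 rose (median -0.26), against 3.87% of all genes called lower and 4.79% called higher. Lamb1, a laminin chain of mesangial matrix, stood at 196 to 269.5 CPM at baseline (median 210.2) and 118 to 151 CPM after STZ (median 132), without overlap (log2 fold change -0.76, SE 0.097, adjusted p = 0.00203). The matrix linker gene Nid1 (-0.68, adjusted p = 0.0305), Lama4, a laminin chain of endothelial basement membrane (-0.58, adjusted p = 0.0336), Col4a1, a chain of the ubiquitous collagen IV (-0.74, adjusted p = 0.0458), and the fibrillar collagen gene Col5a1 (-0.71, adjusted p = 0.0345) fell with it. Col4a6, another collagen IV chain, rose (0.45, adjusted p = 0.0194). Col4a3, the podocyte-made chain of the mature glomerular basement membrane, did not pass (0.42, adjusted p = 0.126), nor did Fn1, the fibronectin gene (0.54, adjusted p = 0.131). With Xist as a covariate Lamb1 was the 1 member called, and it kept the call in each fit without 1 library. The number that fell was 8 without knockout STZ replicate 2 and 1 to 3 without any other 1 library except control STZ replicate 1.

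Endothelial markers were lower in part. Of 32 tested 7 fell and 1 rose, against 3.87% of all genes called lower and 4.79% called higher, with a median of -0.36. Tek, which encodes the angiopoietin receptor Tie2, stood at 476 to 583 CPM at baseline (median 518) and 273 to 391 CPM after STZ (median 334). Again no STZ library reached the baseline range (log2 fold change -0.65, SE 0.11, adjusted p = 0.00599). Ehd3, a membrane-trafficking gene typical of glomerular endothelium, fell from a median of 3068 to 1550.3 CPM with overlap (log2 fold change -0.78, SE 0.15, adjusted p = 0.0121). Emcn, the endomucin gene (-0.52, adjusted p = 0.0187), Ramp2, an adrenomedullin receptor component (-0.58, adjusted p = 0.0113), and the transcription factor genes Ets1 (-0.41, adjusted p = 0.0230) and Sox17 (-0.35, adjusted p = 0.0395) also fell. Igfbp5, an insulin-like growth factor binding protein and one of the most abundant transcripts, stood at 6931 to 8365 CPM at baseline (median 7439) and 2915 to 5247 CPM after STZ (median 4735) without overlap (log2 fold change -0.78, SE 0.14, adjusted p = 0.00774). Sost, the Wnt antagonist sclerostin, was the member that rose (log2 fold change 1.51, SE 0.26, adjusted p = 0.00769), from a median of 23.4 to 61.9 CPM with overlap. The general endothelial genes Pecam1 (-0.39, adjusted p = 0.0813) and Kdr (-0.31, adjusted p = 0.238) did not pass. The number that fell was 4 without knockout STZ replicate 3 and 12 without control STZ replicate 1, and 4 with Xist as a covariate.

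**Figure D3:**
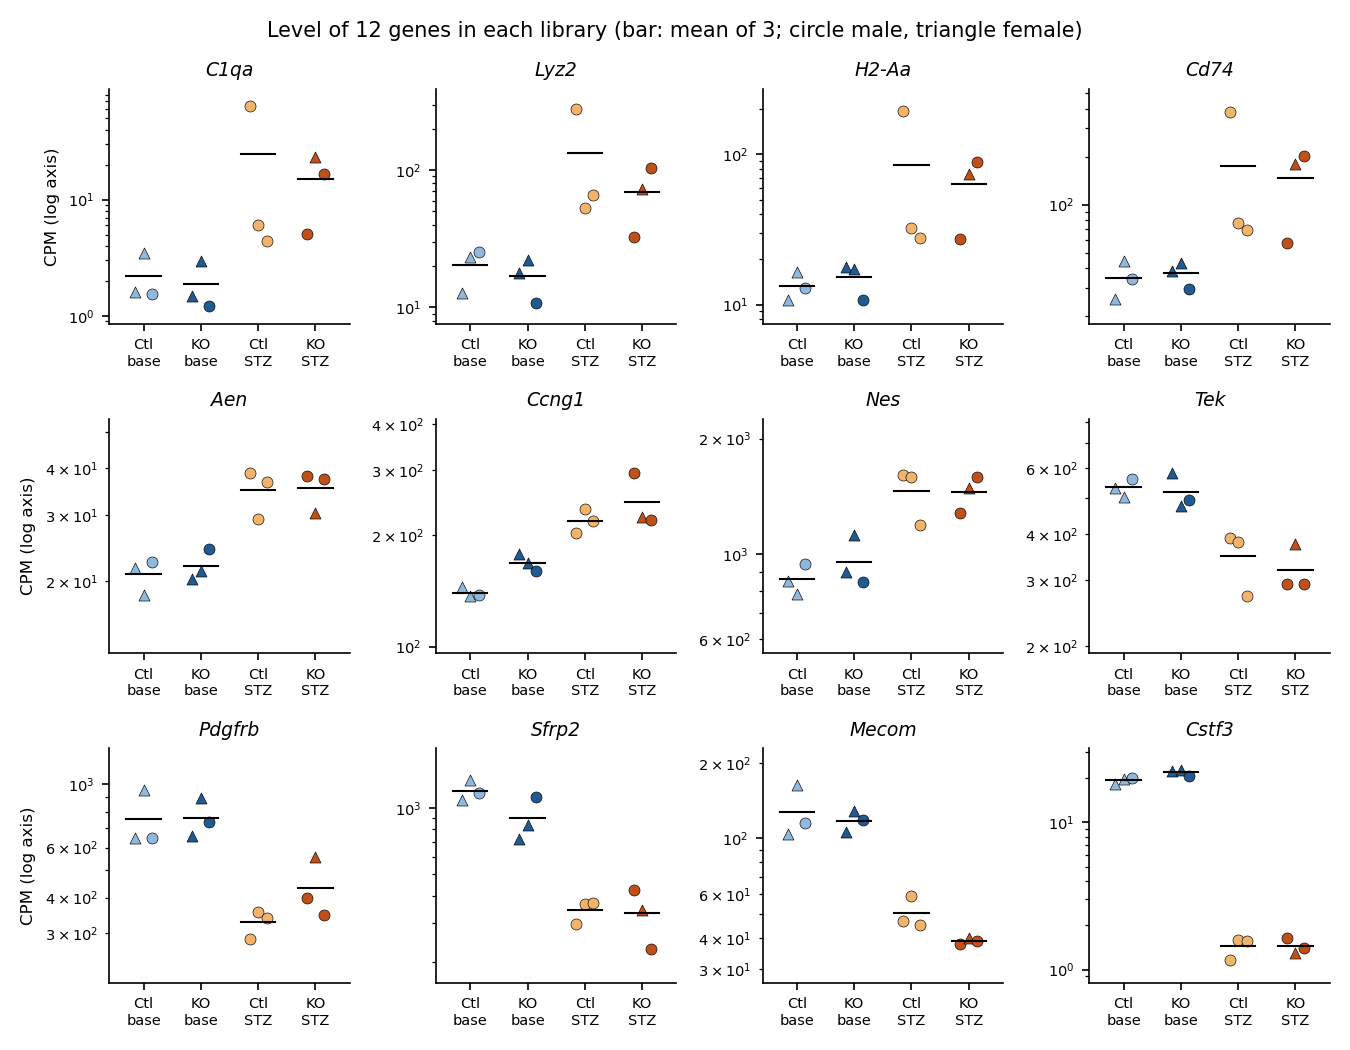
The level of 12 genes (vertical axes, CPM on a log scale) is shown in each library of the 4 groups, control and knockout at baseline (blue) and after STZ (orange and red), with a bar at the mean of 3 mice, circles for male and triangles for female mice. The 12 genes were picked by hand, and in all 12 panels the arms do not overlap, which held for 4.59% of all genes tested. Called genes with overlap, such as C1qb and Itga8, are not drawn. For C1qa, Lyz2, H2-Aa and Cd74 the highest STZ library is control replicate 1.

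Podocyte genes were higher in part. Of 34 other podocyte markers 14 rose and 1 fell (median 0.46). Of 26 slit diaphragm and cytoskeleton genes 3 rose and none fell (median 0.14), and of 17 podocyte transcription factors 2 rose and 1 fell (median 0.10), against 4.79% of all genes called higher and 3.87% called lower. Nes, the intermediate filament nestin, stood at 787 to 1118 CPM at baseline (median 872) and 1192 to 1611 CPM after STZ (median 1536), without overlap (log2 fold change 0.69, SE 0.11, adjusted p = 0.00552). Npnt, the basement membrane ligand nephronectin, rose by 0.50 on the log2 scale with overlap (adjusted p = 0.0133). Pdpn, the membrane glycoprotein podoplanin (0.79, adjusted p = 0.0146), Cdkn1c, the cell cycle inhibitor p57 (0.82, adjusted p = 0.0153), Rhpn1 (0.90, adjusted p = 0.00871), and Bmp7, a growth factor (0.94, adjusted p = 0.0345), rose as well. Bmp7 lost its call in 9 of the 12 fits without 1 library, while Pdpn, Cdkn1c and Rhpn1 kept theirs in each.

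Vegfa, the growth factor podocytes supply to the endothelium, rose by 0.43 (adjusted p = 0.0372), with log2 fold changes of 0.69 in controls and 0.16 in knockouts. Ptpro, a podocyte receptor phosphatase, rose by 0.43 (adjusted p = 0.0349), and Inf2, an actin-regulating formin, by 0.55 (adjusted p = 0.0343). Nphs1 (0.30, adjusted p = 0.0716) and Synpo, the actin-binding synaptopodin gene (0.15, adjusted p = 0.370), did not pass. Of the transcription factor genes, Tcf21 (0.49, adjusted p = 0.0430) and Hoxa9 (0.37, adjusted p = 0.0441) rose and Lmo7 fell (-0.63, adjusted p = 0.0174), while Wt1 (0.10, adjusted p = 0.637) did not pass. Inf2 lost its call in 8 of the 12 fits without 1 library, Ptpro in 9, Tcf21 in 10 and Hoxa9 in 9. With RLE scaling Ptpro, Tcf21 and Hoxa9 were not called, and with Xist Inf2, Tcf21, Hoxa9 and Lmo7 were not. Pla2r1, the phospholipase A2 receptor, was the other podocyte marker that fell (-0.58, adjusted p = 0.0325). With Xist as a covariate 3 of the other podocyte markers were called (Nes, Npnt and Schip1), all higher, at a median of 0.45. The number that rose was 5 to 8 without control STZ replicate 3, knockout STZ replicate 3, control baseline replicate 2 or knockout baseline replicates 2 or 3. Nes and Npnt kept their calls in each fit without 1 library and with Xist.

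Targets of p53, the transcription factor of the DNA damage response, rose in part, and of all lists with 5 or more calls this one lost the fewest with Xist as a covariate. Of 34 tested 7 rose, against 4.79% of all genes, and none fell (median 0.22), and 6 rose with the covariate. Aen, a p53-induced nuclease (chromosome 7, 78895927 to 78911209), stood at 18.3 to 24.3 CPM at baseline (median 21.5) and 29.3 to 38.7 CPM after STZ (median 37.0). The arms did not overlap (log2 fold change 0.72, SE 0.097, adjusted p = 0.00254). Ccng1, cyclin G1, stood at 137 to 178 CPM at baseline (median 152) and 203 to 295 CPM after STZ (median 222), without overlap (log2 fold change 0.60, SE 0.082, adjusted p = 0.00257). Zmat3, an RNA-binding p53 target, rose from a median of 34.7 to 49.6 CPM without overlap (log2 fold change 0.46, SE 0.075, adjusted p = 0.00552). Gdf15, a stress-induced hormone (1.86, adjusted p = 0.0113), Eda2r, a death receptor of the TNF family (1.42, adjusted p = 0.0113), Ckap2, a mitotic spindle protein (1.30, adjusted p = 0.00734), and Pmaip1, the pro-apoptotic NOXA (1.11, adjusted p = 0.0319), rose too. The best known targets did not pass, Cdkn1a, the cell cycle inhibitor p21 (0.34, adjusted p = 0.6251), and Mdm2, the ubiquitin ligase of p53 (0.32, adjusted p = 0.0526).

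Cell cycle and replication genes rose in part. Of 32 tested 6 rose, against 4.79% of all genes, and 26 did not pass, while all 32 had a positive log2 fold change (median 0.46). Rrm1 and Rrm2, subunits of ribonucleotide reductase, rose by 0.64 and 0.71 (adjusted p = 0.0110 and 0.0158). Hells, a chromatin remodeller, stood at 4.17 to 5.51 CPM at baseline (median 4.92) and 6.42 to 8.11 CPM after STZ (median 6.84), without overlap (log2 fold change 0.53, SE 0.10, adjusted p = 0.0114). Uhrf1, Ccnb2 and Cdk1, a methylation maintenance factor, a mitotic cyclin and its kinase, rose by 0.69, 0.70 and 0.73 (adjusted p = 0.0232, 0.0372 and 0.0451). The proliferation markers Mki67 (0.95, adjusted p = 0.0805) and Top2a (0.70, adjusted p = 0.0739) did not pass. With Xist as a covariate 2 members were called, Rrm1 and Hells, and both kept the call in each fit without 1 library. The count was 13 without knockout STZ replicate 1 and 2 or 3 without knockout STZ replicate 3, control baseline replicates 1 or 3 or knockout baseline replicates 2 or 3, and limma-voom called 3.

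**Figure D4:**
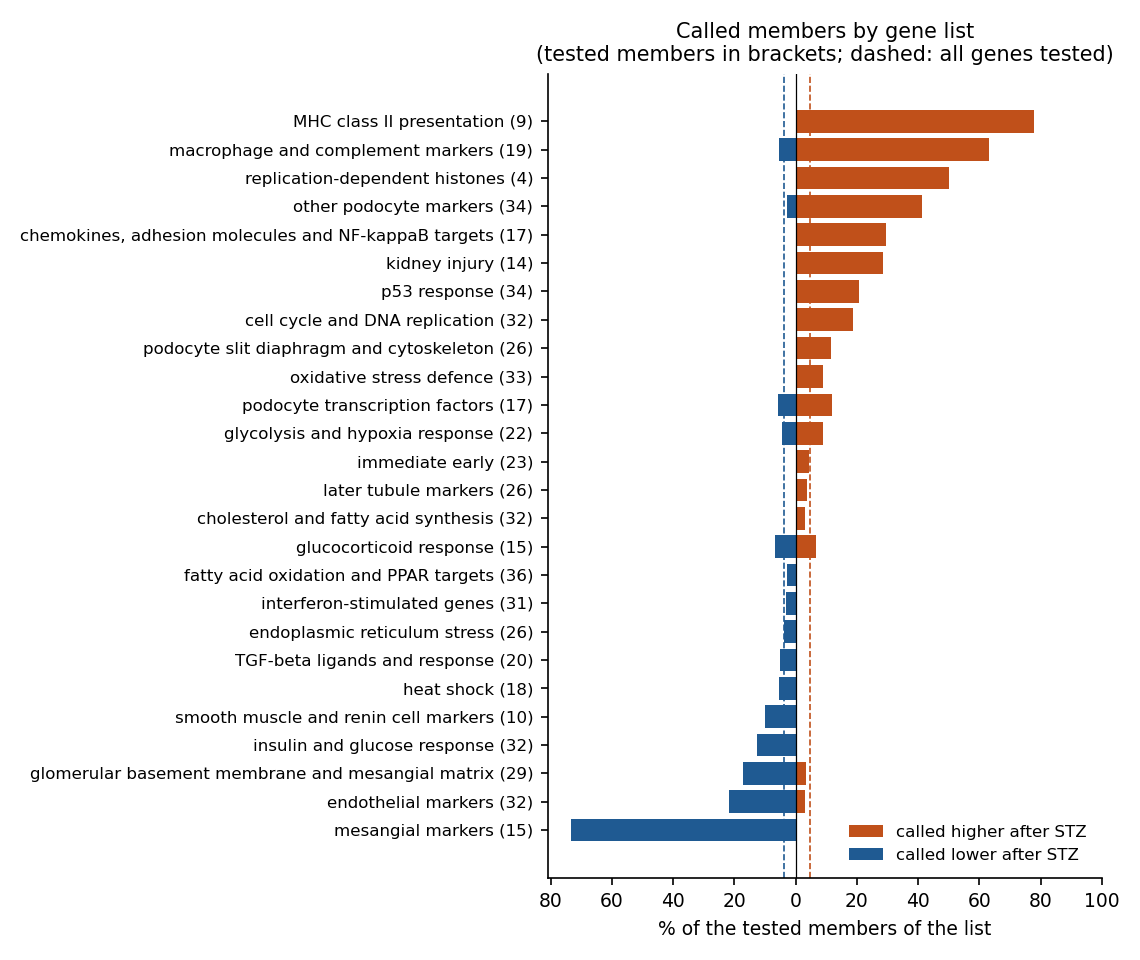
Bars give the share of the tested members of each gene list (vertical axis, number tested in brackets) that were called higher (orange, to the right) or lower (blue, to the left) after STZ, in percent. Dashed lines mark the shares over all genes, 4.79% higher and 3.87% lower, and lists with no call are not drawn.

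Genes of the insulin response fell in part. Of 32 tested 4 fell, against 3.87% of all genes, and none rose (median -0.13). Foxo1, the transcription factor that insulin shuts out of the nucleus, stood at 119 to 175 CPM at baseline (median 149) and 88.7 to 99.7 CPM after STZ (median 92.1), without overlap (log2 fold change -0.64, SE 0.086, adjusted p = 0.00254). Igfbp5 is among the 4, with Igfbp4, another binding protein (-0.56, adjusted p = 0.0150), and Gfpt2, an enzyme of hexosamine synthesis (-1.01, adjusted p = 0.0154). All 4 kept the call in each fit without 1 library, but with Xist as a covariate Igfbp4 (adjusted p = 0.0605) and Gfpt2 lost it. Insr, the insulin receptor gene, did not pass (-0.80, adjusted p = 0.0741), nor did Txnip, a glucose-induced gene (-0.11, adjusted p = 0.716). Pck1, a gluconeogenesis enzyme of the proximal tubule, had a log2 fold change of -1.53 (adjusted p = 0.0821), and proximal tubule markers had a median of -0.32 with none of 30 called, 0.21 in controls alone and -0.97 in knockouts alone.

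Of 14 kidney injury genes 4 rose, against 4.79% of all genes. Havcr1, the tubule injury marker KIM-1, stood at 0.317 to 0.590 CPM at baseline (median 0.419) and 0.658 to 10.6 CPM after STZ (median 1.10), with knockout STZ replicate 3 highest (log2 fold change 2.42, SE 0.61, adjusted p = 0.0345). Its log2 fold change was 1.11 in controls (adjusted p = 0.504) and 3.55 in knockouts (adjusted p = 0.0360), and the interaction did not pass (2.43, adjusted p = 0.975). Lcn2, the injury marker lipocalin 2 (2.60, adjusted p = 0.0432), Vim, vimentin (0.98, adjusted p = 0.0317), and Cd44, a hyaluronan receptor (1.38, adjusted p = 0.0344), also rose, and none of the 4 was called with Xist as a covariate. Without control STZ replicate 1, knockout STZ replicate 3 or any 1 baseline library 0 to 2 of the list were called higher, and limma-voom called 1, Vim. Of 33 oxidative stress genes 3 rose, against 4.79% of all genes, the glutathione transferase gene Gsta4 (0.79, adjusted p = 0.00624), the quinone reductase gene Nqo1 (0.95, adjusted p = 0.0317) and Cybb, the phagocyte oxidase subunit (2.23, adjusted p = 0.0264). Gsta4 kept the call in each fit without 1 library, with Xist and with limma-voom, while Nqo1 lost it in 9 and Cybb in 6 of the 12 fits and both lost it with Xist and with limma-voom. Hmox1, heme oxygenase 1, did not pass (0.42, adjusted p = 0.0953). Of 22 hypoxia and glycolysis genes 2 rose and 1 fell, against 4.79% of all genes called higher and 3.87% called lower. Adm, the vasodilator adrenomedullin (1.00, adjusted p = 0.00981), and Vegfa rose and Epas1, the factor HIF-2 alpha, fell (-0.48, adjusted p = 0.0432), while Hif1a did not pass (0.16, adjusted p = 0.392). Adm kept its call in each fit without 1 library and with Xist, whereas Vegfa lost it in 10 and Epas1 in 9 of the 12, and both lost it with Xist and with RLE scaling. Aqp2, the water channel of the collecting duct, rose (1.17, adjusted p = 0.0194), a call lost with Xist (adjusted p = 0.0957). It was the 1 call among 26 later tubule markers, beside 4.79% of all genes called higher. Umod, the uromodulin gene of the thick ascending limb, did not pass (-0.40, adjusted p = 0.366).

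Of 26 endoplasmic reticulum stress genes 1 was called, lower, near the 3.87% of all genes called lower, and it kept the call with Xist as a covariate. Eif2ak3, which encodes the stress sensor PERK, stood at 54.2 to 68.7 CPM at baseline (median 59.0) and 26.9 to 41.3 CPM after STZ (median 31.5), without overlap (log2 fold change -0.93, SE 0.11, adjusted p = 0.00106). The chaperone gene Hspa5 (-0.37, adjusted p = 0.546) and Ddit3, the stress factor CHOP (-0.14, adjusted p = 0.765), did not pass. Single calls also stood in the lists of glucocorticoid response (Nr3c1, the glucocorticoid receptor, lower, -0.34, adjusted p = 0.0356, beside Lcn2), immediate early genes (Ier3, higher, 0.88, adjusted p = 0.0293), heat shock (Hsf1, lower, -0.36, adjusted p = 0.0431), TGF-beta (the receptor gene Tgfbr2, lower, -0.38, adjusted p = 0.0458), fatty acid oxidation (Ppard, lower, -0.34, adjusted p = 0.0325) and sterol synthesis (Lss, higher, 0.30, adjusted p = 0.0226). Of the 12 fits without 1 library, Tgfbr2 lost its call in 11, Hsf1 in 9, Nr3c1 in 8, Ier3 in 7, Ppard in 7 and Lss in 4, and with Xist Ier3 alone of these 6 was called. Neither Hsf1 nor Tgfbr2 was called with limma-voom. These 6 lists held 15, 23, 18, 20, 36 and 32 tested genes in the order named. A single call in such a list is near the shares over all genes, 4.79% higher and 3.87% lower. In the same lists Fkbp5 (-0.67, adjusted p = 0.615), Fos (-0.38, adjusted p = 0.695), Hspa1a (-0.17, adjusted p = 0.940), Tgfb1 (-0.28, adjusted p = 0.263), Cpt1a (-0.064, adjusted p = 0.829) and Pdk4 (0.17, adjusted p = 0.828) did not pass. Of 4 tested histone genes, the linker histone gene Hist1h1c (0.86, adjusted p = 0.00254) and Hist1h2bc (0.44, adjusted p = 0.0431) rose. Hist1h1c kept its call with Xist, while Hist1h2bc lost its call in 9 of the 12 fits, with Xist and with limma-voom. None was called of 20 circadian clock genes, where Arntl, the core activator, had -0.85, adjusted p = 0.0558 and Per1 -0.15, adjusted p = 0.799. None was called of 75 oxidative phosphorylation genes (median 0.11) or of 79 ribosomal protein genes (median 0.14).

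The decreases with the smallest p stood outside these lists. Cstf3, a factor of mRNA 3′ end cleavage (chromosome 2, 104590484 to 104665425), stood at 18.3 to 22.9 CPM at baseline (median 20.2) and 1.16 to 1.64 CPM after STZ (median 1.49). The arms lay far apart, 14.2-fold, with little spread within either (log2 fold change -3.83, SE 0.11, adjusted p = 4.57e-09). Cep97, a centrosome protein that restrains cilia (chromosome 16, 55899888 to 55934848), stood at 13.3 to 18.4 CPM at baseline (median 18.0) and 1.16 to 1.73 CPM after STZ (median 1.49), a 11.4-fold decrease (log2 fold change -3.51, SE 0.13, adjusted p = 3.28e-08). Cacfd1, a small membrane protein (chromosome 2, 27009855 to 27021090), stood at 21.2 to 25.5 CPM at baseline (median 24.9) and 2.52 to 3.30 CPM after STZ (median 3.18), a 7.78-fold decrease (log2 fold change -2.96, SE 0.088, adjusted p = 4.57e-09).

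Abca6, a lipid transporter of the ABC family (-2.49, adjusted p = 6.41e-07), Crebzf, a leucine zipper cofactor (-2.15, adjusted p = 1.68e-06), Itih4, a plasma matrix-stabilising protein (-2.20, adjusted p = 1.13e-05), and Arpp21, a cAMP-regulated phosphoprotein (-2.23, adjusted p = 4.62e-05), fell without overlap. So did Fgf1, a fibroblast growth factor, which stood at 180.3 to 430.5 CPM at baseline (median 398) and 22.2 to 166 CPM after STZ (median 34.0) (log2 fold change -2.86, SE 0.51, adjusted p = 0.00849). Cstf3, Cep97, Cacfd1, Fgf1, Abca6 and Crebzf were among the 7 genes called in the male libraries alone. Pira6 (-2.98, adjusted p = 2.11e-05) belongs to a family of near-identical receptors, and its value is uncertain. Kcnk10, a potassium channel (-2.63, adjusted p = 0.00257), Ddo, a D-aspartate oxidase (-1.94, adjusted p = 0.00376), and Sptbn4, a spectrin (-1.66, adjusted p = 0.000158), complete the largest decreases. The exons of Arpp21 and Sptbn4 overlap those of another gene.

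Among the genes of smallest p at 10 CPM or more was also Mecom, the transcription factor EVI1, at 104 to 164 CPM at baseline (median 117) and 37.7 to 58.6 CPM after STZ (median 42.4). The arms did not overlap, and the decrease was 2.78-fold (log2 fold change -1.47, SE 0.12, adjusted p = 6.63e-05). Cd55, the complement decay-accelerating factor on cell surfaces, stood at 143 to 164 CPM at baseline (median 154) and 287 to 367 CPM after STZ (median 325). It was the 1 gene of these 6 that rose, 2.13-fold and without overlap (log2 fold change 1.09, SE 0.074, adjusted p = 1.34e-05). Brip1os (-1.002, adjusted p = 9.32e-06) and Dopey2 (-1.03, adjusted p = 5.81e-05) fell. Exons of Mecom, Cd55 and Brip1os overlap another gene, and whether the counting used strand is not given in the sources used here.

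The STZ effect was also estimated within each genotype. Fitted within a genotype on all 12 libraries, STZ was called in 69 genes in controls (0.512%) and in 251 in knockouts (1.86%, of which 180, or 1.34%, higher), with 37 in both, or 53.6% of the former and 14.7% of the latter. Fitted on the 6 libraries of 1 genotype alone, the counts were 31 in controls and 24 in knockouts, so the order of the counts turned. Sex moved with the arm differently by genotype. At baseline replicates 1 and 2 were female in both genotypes, while after STZ knockout replicate 2 alone was female. The part of sex in these within-genotype counts was not tested. The difference between the genotypes, tested as the interaction, was called in 1 of 13475 genes (0.00742%). This was Adamtsl1, a secreted ADAMTS-like matrix protein, at 4.68 to 5.63 CPM in control baseline and 4.09 to 4.92 CPM in control STZ libraries. In knockouts it stood at 48.3 to 56.4 CPM at baseline and 116 to 141 CPM after STZ, without overlap (interaction 1.52, SE 0.17, adjusted p = 0.0440). The call was lost in each of the 12 fits without 1 library, with limma-voom, with the tubule covariate and with Xist.

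Below the threshold on the positive side stood Parm1, a mucin-like membrane protein (interaction 2.86, adjusted p = 0.0578), Postn (1.17, adjusted p = 0.0974), the kinase gene Camk2a (2.41, adjusted p = 0.163) and Fbln5, the fibulin 5 gene (1.71, adjusted p = 0.163). On the negative side stood Efna1, an ephrin ligand (-1.02, adjusted p = 0.559), Gdnf, a neurotrophic factor (-1.28, adjusted p = 0.852), Piga (-1.09, adjusted p = 0.938), Gtf2h2 (-0.85, adjusted p = 0.946) and Sost (-1.27, adjusted p = 0.975). An unadjusted interaction p under 0.05 was reached by 5.39% of the called genes and 3.67% of all genes. On simulated counts, with each gene drawn independently, the interaction test recovered 13.4% of genes changed 2-fold, so differences of that size may have gone uncalled.

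**Figure D5:**
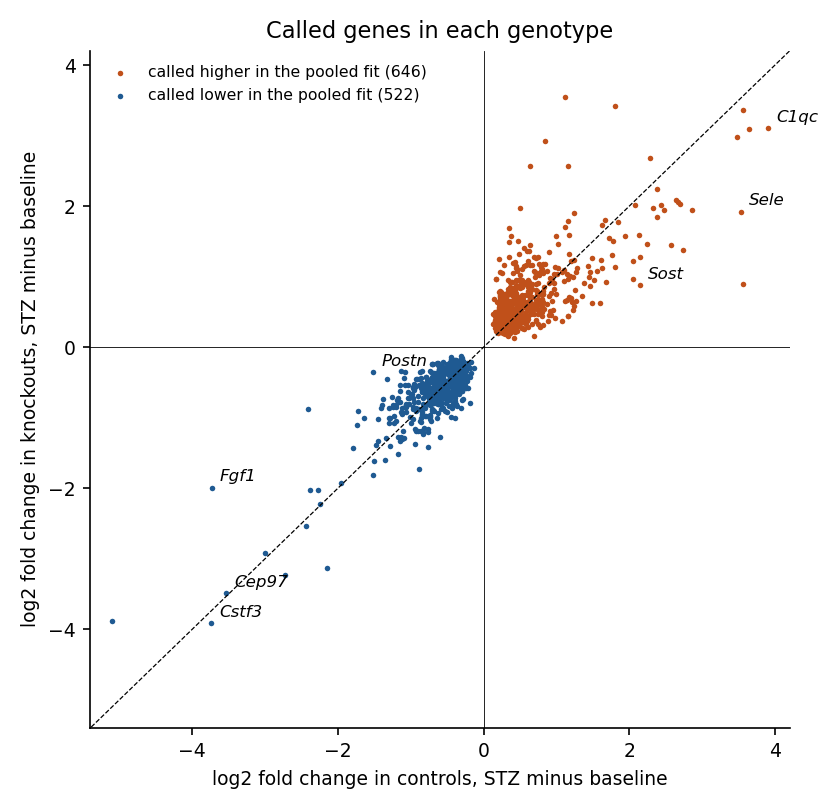
Each of the 1168 called genes is placed at its log2 fold change (STZ minus baseline) in controls (horizontal axis) and in knockouts (vertical axis), with genes called higher in orange, genes called lower in blue and equality dashed. The genes were chosen by the pooled term, which averages both axes, which favours the same sign on both. Cstf3 and Cep97 lie close to the line, and Sele, Fgf1 and Postn lie off it.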

How the data were processed

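RNA-seq of glomeruli from 12 mice was analysed. The authors deposited estimated counts per gene symbol, 1 table per library, which are not whole in 10.5% to 11.5% of values and not scaled to depth. They were rounded to whole numbers, and 15 blank values among the genes of both arms were taken as 0. BWA and mm10 are named per the submitters' processing notes, without a role, and none of the sources used here gives the counting tool, annotation or strand handling. Every gene in the STZ tables reached 100 counts in some STZ library, while the lowest such maximum at baseline was 14, so the tables had been filtered differently. The 2818 genes listed only after STZ and the 5 listed only at baseline were not tested. Between 99.4% and 100% of a library's counts lay on the shared genes. In 13 genes (6 groups) the values were identical in all libraries to those of another gene.

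After filterByExpr and TMM scaling, edgeR (4.0.16, with limma 3.58.1 under R 4.3.3) fitted quasi-likelihood models, and p-values were adjusted by Benjamini-Hochberg over all 13475 genes. The model held arm and genotype, and the interaction was added in a second fit. Standard errors are derived from the F statistic. Replicates are different mice, and replicate numbers are in accession order. Alternatives were other scalings, filters and tests (DESeq2 1.42.0, limma-voom), covariates for sex and tubule, each library left out, and each genotype alone. The fits on male mice, and those joining the sex covariate with the omission of control STZ replicate 1, were added after the data were seen.

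The gene lists and members were chosen with earlier results of these data known. Named genes are the 12 largest changes each way at 1 CPM or more on average whose arms do not overlap, the 6 of smallest p at 10 CPM or more, up to 5 members of smallest p and up to 2 best known members of each of 36 lists, and for the interaction 5 each way. For lists with more calls some further called members were named, chosen after their values were seen. Symbols of predicted genes were to be skipped, and 0 met the rule. Some genes that the rule names are not reported here. Gene positions are those of RefSeq for GRCm38.p6, which matched 13120 symbols.

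On simulated counts for the pooled STZ effect (13475 genes), 28.4% of genes changed 1.5-fold, 86.6% of those changed 2-fold and 97.0% of those changed 4-fold came back as called, and 5 of 146 calls were false. The interaction (13475 genes) recovered 1.49%, 13.4% and 75.8%, and 3 of 63 calls were false. Each gene was drawn independently, so shifts that many genes share, as with sex, adhering tubule or 1 deviating library, were absent. These recovery rates and false calls may not hold for the real libraries.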

Additional observations from a re-analysis of the deposited data

Results flagged for a closer look

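In 21 of 74 sets of 6 values checked (28.4%), over 28 genes and the list means, 1 library stood apart by Dixon's 95% criterion. For normally distributed values chance gives this in about 1 in 20 sets. The genes were checked on unlogged CPM and chosen for large changes or small p, and genes of 1 list share their libraries. The 28.4% can therefore not be set against that rate. In 10 sets control STZ replicate 1 was the high library. It held C1qc at 49.9 CPM, Mpeg1 at 212 CPM, C1qa at 63.7 CPM, Sele at 159.7 CPM, Lyz1 at 71.6 CPM, Lyz2 at 279 CPM, H2-Aa at 194 CPM, Fcer1g at 30.8 CPM, Tyrobp at 38.9 CPM and Pira6 at 2.97 CPM. The other 5 STZ libraries reached at most 71.6 CPM for Mpeg1, 37.3 CPM for Sele and 89.5 CPM for H2-Aa. Their lowest values, 11.7, 17.1 and 27.1 CPM, were above every baseline library, which the rule that named these 3 genes required.

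Among the other STZ libraries, knockout replicate 3 was high for Havcr1 (10.6 CPM) and Itih4 (2.31 CPM), knockout replicate 2 was high for Fgf1 (165.7 CPM) and low for Cacfd1 (2.52 CPM), and control replicate 2 was high for Kcnk10 (1.71 CPM). Crebzf was low in control replicate 1 (1.89 CPM) and Sptbn4 in knockout replicate 1 (2.26 CPM). At baseline, Tyrobp was low in control replicate 1 (3.29 CPM), Fgf1 was low (180.3 CPM) and Sptbn4 high (13.4 CPM) in knockout replicate 3, and the mean log2 CPM of the endothelial list was high in knockout replicate 1 (8.32).

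For Adamtsl1 the interaction of STZ with genotype was called (1.52 on the log2 scale, adjusted p = 0.0440, edgeR), a call lost in each of the 12 fits without 1 library, with limma-voom, with the tubule covariate and with Xist. A further 2818 genes were listed in the STZ tables only, so no STZ effect could be fitted for them. They include the macrophage markers Cd68 (median 4.06 CPM over the STZ libraries) and Aif1 (2.71 CPM), the chemokine genes Ccl2 (2.46 CPM) and Cxcl2 (1.85 CPM) and the lymphocyte markers Cd3g (2.63 CPM) and Cd4 (1.64 CPM).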

How the results depend on the processing

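No paired analysis was possible because the labels give no replicate numbers that the groups share, and the numbers used here are in accession order. The pooled STZ count of 1168 (646 higher, 522 lower) depended on the test, on covariates and on single libraries. DESeq2 called 1824 genes (905 lower), and a proximal tubule covariate gave 2312 (1324 higher, 988 lower). Xist as a covariate gave 365 (187 higher, 178 lower), 350 (162 and 188) with control STZ replicate 1 also left out, and male mice alone 7 (0 and 7). Controls alone gave 31 (6 and 25) and knockouts alone 24 (15 and 9), on 6 libraries each. A log2 threshold of 1 left 140 (80 and 60), and an adjusted p under 0.01 left 260 (120 and 140). Without 1 library the count ran from 500 to 1116, with 238 to 612 higher and 247 to 504 lower. It was 500 without knockout STZ replicate 3, 745 and 552 without control baseline replicates 1 and 2, and 652 and 716 without knockout baseline replicates 2 and 3. The higher count alone also moved by over 1.5 times without control STZ replicate 3 (409), control baseline replicate 3 (402) and knockout baseline replicate 1 (422). RLE scaling (1028, 47.4% of them higher against 55.3%), library totals (1106), voom (960), thinned STZ libraries (1037), no genotype block (895) and group means (1006) stayed within 1.5 times, although voom called fewer members of the macrophage, MHC class II, chemokine, cell cycle, kidney injury and oxidative stress lists. The cause of these shifts was not tested.

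The interaction was called in 2 genes with RLE scaling, 2 with library totals and 2 with thinned STZ libraries, 31 with DESeq2, and 0 with voom, with the tubule covariate and with Xist, and in 0 to 2 without 1 library. At an unadjusted p under 0.05 it reached 494 genes. No gene called in the pooled fit changed sign in any setting run. Of 123 named called genes, 63 kept the call in every fit without 1 library, 58 with Xist as a covariate and 53 in both (22 higher, 31 lower).

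Among the 35 named genes that were not called, signs turned in 22 pairs of gene and setting. Without 1 library, Hspa1a ran from -1.41 to 0.59, Per1 from -0.32 to 0.14 and Pdk4 from -0.26 to 0.33. Hspa1a was 0.095 with the tubule covariate, 0.12 without the genotype block and 0.64 in controls alone. With Xist, Per1 was 0.023 and Fos 0.31, and with control STZ replicate 1 also left out Fos was 0.39, Ddit3 0.022 and Pdk4 -0.13. In controls alone Cpt1a was 0.14, Wt1 -0.052 and Ren1 -0.18, and in knockouts alone Pdk4 was -0.46. In males Per1 was 0.43, Fos 0.62, Dach1 -0.066, Hspa5 0.062 and Ddit3 0.17.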

Other observations

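Calls varied with gene length and base composition. When 13235 genes with an annotated length were split into 5 equal bins by length, the share called higher went from 6.91% in the shortest to 3.32% in the longest and the share called lower from 1.89% to 4.53%. Over 5 bins of GC content, the share called lower went from 2.15% to 6.91%. Medians over the length bins went from 0.09 to -0.0038 on the log2 scale. Their part in the results was not tested.

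Ttr, the transthyretin gene of hormone transport, was chosen after its values were seen. It had the lowest log2 fold change of the called genes, -4.44 (SE 0.93, adjusted p = 0.0157), at 5.49 to 99.9 CPM at baseline (median 21.9) and 0.210 to 9.60 CPM after STZ (median 0.532), and the arms overlapped through knockout STZ replicate 2.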
